A study of Homo sapiens with 18 samples.

Results

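CD38 and 9 further genes of NAD metabolism were followed across 3 human multiple myeloma cell lines. The 10 genes were CD38, BST1, NT5E, NAMPT, NAPRT, QPRT, NMNAT1, NMNAT3, NADK and NADSYN1. They were taken by symbol from a table of 28395 genes, which held all 10. Of these, 9 passed the low-count filter and were tested among 14571 genes, and BST1 did not pass.

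The series asks, by its title, how the immunomodulatory drugs and the loss of Ikaros and Aiolos bear on CD38 and on killing by daratumumab, an antibody against CD38. RNA from H929, MM1S and OPM2 cells was sequenced in 18 libraries, 2 for each of 9 groups. In each line, cells labelled as an inducible CRISPR-Cas9 knockout of IKZF1, the gene for Ikaros, were set beside cells of the same line with an empty vector. OPM2 had in addition a knockout of IKZF3, the gene for Aiolos. Knockout and empty vector cells were all given doxycycline at 1 µg/mL, which switches on the guide RNA, for 72 h. A further OPM2 pair set cells given 10 µM lenalidomide for 72 h beside untreated cells, for which the labels name neither a vector nor doxycycline. Live cells were sorted by flow cytometry before RNA was made. The titles give 1 guide number per knocked-out gene, and say nothing of pools or clones. The names of the count columns add a letter to that number. In the OPM2 IKZF1 knockout it is B for library a and C for library b, and in each other knockout group both libraries share it. What the letter stands for is not stated, so the 2 OPM2 IKZF1 libraries may not be alike in origin. The labels do not say that the 2 libraries of a group came from separate cultures, so p-values measure only the spread between these libraries, which may be technical.

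NAD is made by several routes that meet at a shared step. NAMPT starts the salvage of nicotinamide, NAPRT starts the use of nicotinic acid, and QPRT ends the de novo route from tryptophan. NMNAT1, in the nucleus, and NMNAT3, in mitochondria, are the enzymes that join the products to ATP. NADSYN1 then amidates the acid form to NAD, and NADK phosphorylates NAD to NADP. CD38 and its relative BST1 (CD157) are surface enzymes that cleave NAD, giving nicotinamide, ADP-ribose and the calcium messenger cyclic ADP-ribose. NT5E (CD73) is a surface nucleotidase that turns AMP into adenosine. CD38 is abundant on plasma cells and on myeloma cells.

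The libraries held 11.8 to 24.2 M counts. Genes more than 2-fold apart between the 2 libraries of a group numbered 258 to 1638, with the highest number in the OPM2 empty vector pair, whose replicate 1 also had the lowest scaling factor (0.860). The transcript of the targeted gene was not lower in any knockout: IKZF1 measured 128 and 120 CPM (counts scaled to library size) in H929 controls against 124 and 188 in the knockout, 179 and 185 against 312 and 333 in MM1S, and 94.3 and 188 against 213 and 225 in OPM2. IKZF3 measured 44.0 and 50.3 CPM in OPM2 controls against 69.3 and 66.6 in the IKZF3 knockout. Counts over a whole gene cannot show a small coding edit, so they do not check the labels, and a knockout below means cells labelled as such. The 8 plasma cell markers summed to 7543 to 23140 CPM, and the 4 B cell markers to at most 1.62 CPM, with MS4A1 at 0 in every library. The 5 T and NK cell markers reached 43.9 CPM in H929 controls, of which CD3E made up to 40.5 CPM, and did not pass 3.39 CPM in the other lines. The 5 myeloid markers summed to at most 5.13 CPM and the 4 erythroid markers to at most 18.6 CPM, of which HBB was the main part. In MM1S the plasma cell sum was 7679 and 7543 CPM in controls against 12370 and 12710 in the knockout, and the myeloid sum 1.76 and 2.11 against 4.62 and 5.13 CPM. The part of these in the MM1S results was not tested.

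CD38 was the only member called in all 5 comparisons with control, always higher, and QPRT was called in H929 and MM1S. The promoter bases of these 2 genes are printed here because they carried the main changes. They are the 250 bases before the RefSeq start of the gene on the plus strand of GRCh38.p14, at chr4:15778078-15778327 for CD38 and at chr16:29678758-29679007 for QPRT. Capitals mark GGGAA or its reverse complement TTCCC, the core of sites described for Ikaros family proteins.

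CD38: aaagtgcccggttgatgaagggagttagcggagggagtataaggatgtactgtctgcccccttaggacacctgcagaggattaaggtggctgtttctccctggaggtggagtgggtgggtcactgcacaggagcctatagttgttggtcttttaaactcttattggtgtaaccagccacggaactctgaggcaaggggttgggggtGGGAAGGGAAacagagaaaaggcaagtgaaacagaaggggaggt

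QPRT: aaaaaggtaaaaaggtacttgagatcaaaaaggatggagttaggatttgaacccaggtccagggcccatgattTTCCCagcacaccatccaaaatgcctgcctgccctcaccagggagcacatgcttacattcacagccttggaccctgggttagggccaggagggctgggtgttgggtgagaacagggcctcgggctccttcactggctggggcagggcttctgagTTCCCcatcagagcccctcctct

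Each stretch held 2 matches to GGGAA on either strand, and in CD38 the 2 stand side by side close to the start. Matches are common: of 35116 RefSeq promoters of the same length, 59.0% held at least 1 and 24.1% held 2 or more. NAMPT also had 2 matches, NT5E, NMNAT1 and NADK had 1, and NMNAT3 and NADSYN1 had 0. The letters TTCNNNGAA, as in STAT sites, occurred in 6.57% of promoters, and the interferon response element pattern, GAAA repeated after any 2 bases, in 3.02%, both read on either strand. Neither was in the window of a searched member. A match describes letters in a window and was not tied to the changes below. GC content was 52.4% for CD38 and 55.6% for QPRT.

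**Figure D1:**
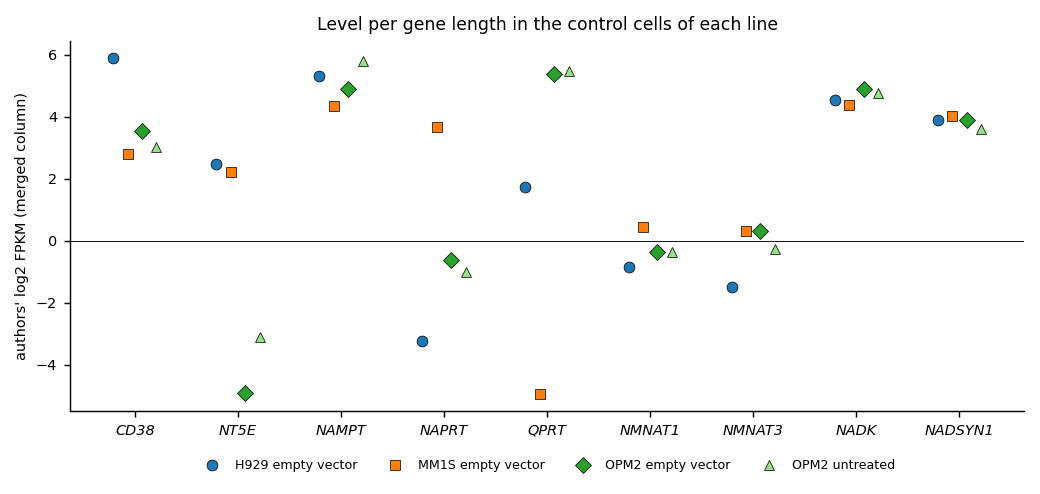
Authors' log2 FPKM (vertical axis, a level per gene length) of the 9 measured members in the control cells of each line, 1 merged value per control group and no error. CD38 leads in H929 at 5.91, NADK in MM1S at 4.37 and QPRT in OPM2 with empty vector at 5.37, and QPRT lies at -4.94 in MM1S.

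The control cells of the 3 lines carried different sets of these enzymes. Levels of different genes were compared on the authors' deposited log2 FPKM scale, which accounts for gene length and gives 1 merged value per control group. In H929, CD38 stood first of 9 members at 5.91, ahead of NAMPT at 5.30 and NADK at 4.52. In MM1S, NADK at 4.37 and NAMPT at 4.36 led, NADSYN1 followed at 4.03 and NAPRT at 3.68, CD38 ranked 5 of 9 at 2.81, and QPRT was last at -4.94. In OPM2 with empty vector, QPRT led at 5.37, CD38 again ranked 5 of 9 at 3.54, and NT5E was last at -4.90. Untreated OPM2 cells had NAMPT first at 5.81 and QPRT second at 5.46. H929 had the lowest NAPRT value of these lines at -3.24. The plot of levels per gene length shows that NADK and NADSYN1 stayed within a narrow band while QPRT, NT5E and NAPRT spanned most of the axis.

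Tests between the empty vector groups gave the order of each member over the lines. These and all later tests used edgeR's quasi-likelihood method, with a call at an adjusted p below 0.05, and log2 differences are given ± standard error (SE). Members called were 6 of 9 between H929 and MM1S, 6 of 9 between H929 and OPM2 and 7 of 9 between MM1S and OPM2, against 63.2%, 64.6% and 67.5% of all genes tested. CD38 was higher in H929 than in MM1S by 3.03 ± 0.23 (adjusted p = 2.84e-08) and than in OPM2 by 2.45 ± 0.22 (adjusted p = 1.93e-07). MM1S lay below OPM2 by a smaller margin, at -0.59 ± 0.22 (adjusted p = 0.0306), a call lost without any 1 of the 4 libraries involved (adjusted p = 0.115 to 0.228), without untreated OPM2 replicate 2 (adjusted p = 0.0545), with limma-voom (adjusted p = 0.0664) and with the compared libraries alone (adjusted p = 0.0803). QPRT ran from OPM2 through H929 to MM1S: H929 lay 3.62 log2 units below OPM2 (-3.62 ± 0.22, adjusted p = 2.80e-09), and MM1S had 2 counts in all against 347 in H929, a ratio of 149 with a 95% counting interval of 41.0 to 1240. NAPRT was highest in MM1S, above OPM2 by 4.63 ± 0.25 (adjusted p = 7.56e-10), and lowest in H929, below OPM2 by -1.92 ± 0.38 (adjusted p = 0.000456). NT5E was near absent from OPM2, with 3 counts against 624 in MM1S (ratio 230, interval 78.2 to 1120), and did not differ in call between H929 and MM1S (0.27 ± 0.19, adjusted p = 0.227). NMNAT1 was higher in MM1S than in OPM2 (1.22 ± 0.23, adjusted p = 0.000290) and H929 (-1.07 ± 0.23 for H929 minus MM1S, adjusted p = 0.000817), while H929 and OPM2 were not told apart (0.15 ± 0.24, adjusted p = 0.611). NMNAT3 was lower in H929 than in MM1S (-1.53 ± 0.34, adjusted p = 0.00105) and OPM2 (-1.16 ± 0.34, adjusted p = 0.00803), the latter lost without H929 empty vector replicate 1 (-0.84, adjusted p = 0.0926). NADK was higher in OPM2 than in H929 (-0.50 ± 0.11 for H929 minus OPM2, adjusted p = 0.00130) and MM1S (-0.67 ± 0.11 for MM1S minus OPM2, adjusted p = 0.000102), both lost with the compared libraries alone (adjusted p = 0.138 and 0.0605). NADSYN1 was called between none of the 3 pairs of lines, with differences of -0.14 to 0.13. Line cannot be told apart from whatever else differed between the cultures.

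**Figure D2:**
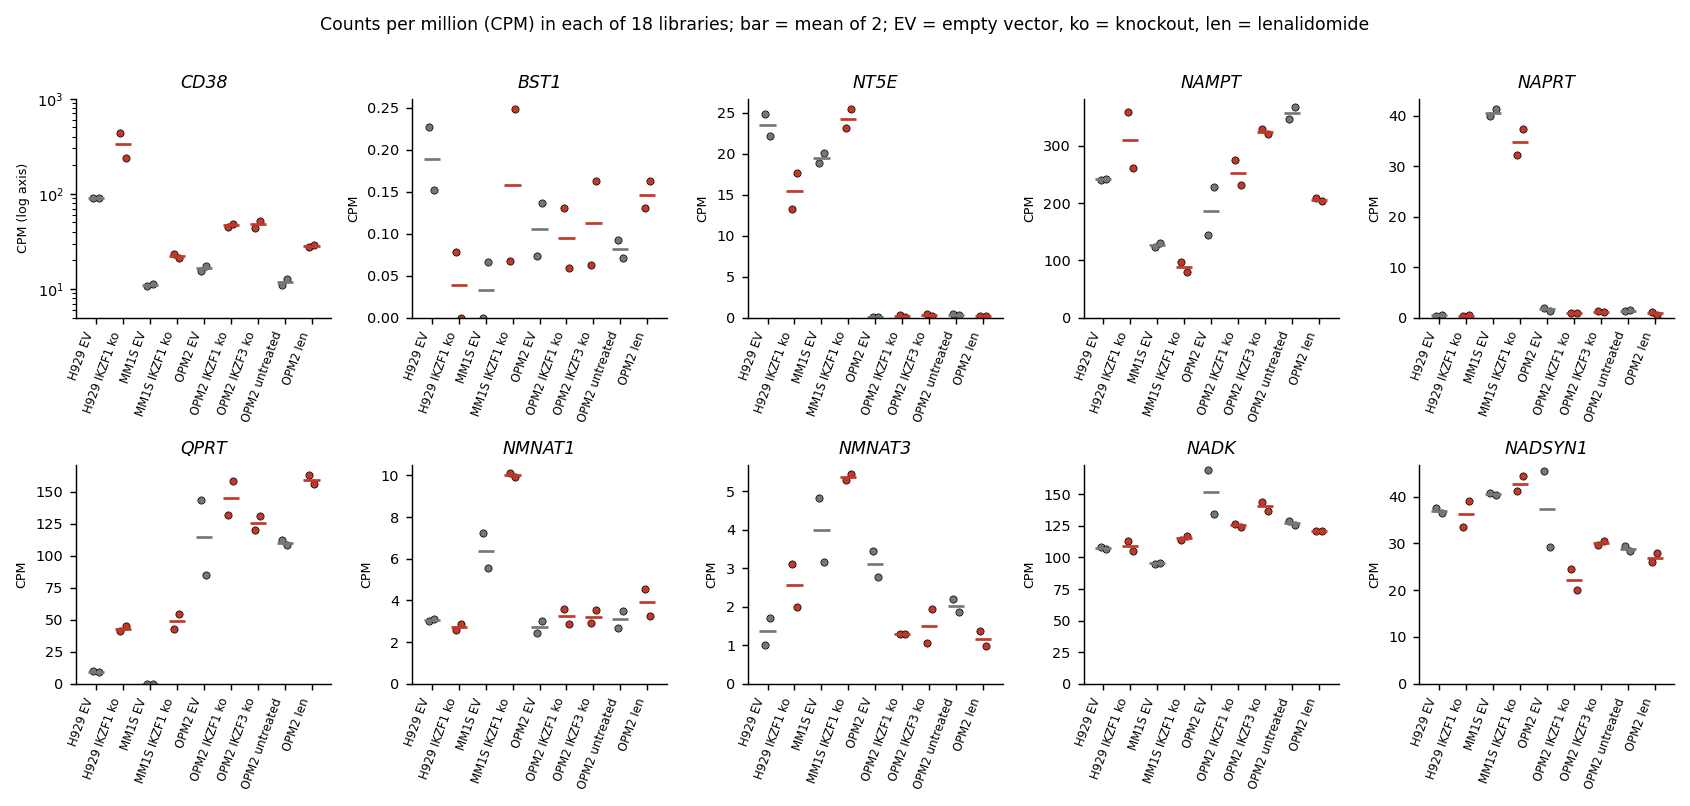
CPM of the 10 members in each of 18 libraries (points) with the mean of the 2 libraries of a group (bars), controls in grey and knockout or drug groups in red, with CD38 on a log axis. All 10 CD38 libraries from knockout or lenalidomide cells lie above their own controls, and QPRT in MM1S goes from 0.0588 and 0.0660 to 43.1 and 54.5 CPM.

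Counts of called members differed between the comparisons, as did the counts over all genes. In H929, 2 of 9 members were called, both higher, against 10.5% of all genes called with 5.92% higher and 4.6% lower. In MM1S, 3 members were higher and 1 lower, against 28.2% of all genes called (15.6% higher, 12.6% lower). The OPM2 IKZF1 knockout had 1 member higher and 2 lower, against 36.3% of all genes (16.2% higher, 20% lower). The OPM2 IKZF3 knockout had 2 higher and 1 lower, against 36.8% of all genes (16.2% higher, 20.6% lower). Lenalidomide had 1 higher and 1 lower, against 10.3% of all genes (5.76% higher, 4.58% lower). The median log2 fold change of the tested members was 0.02, 0.32, 0.23, 0.14 and -0.10 in these 5 comparisons, against medians between -0.03 and 0.00 over all genes. Of all genes tested, 75 (0.515%) were called higher in all 5 comparisons, and CD38 was among them. Both OPM2 knockouts share the same 2 empty vector libraries, so their values are set side by side and are not independent.

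**Figure D3:**
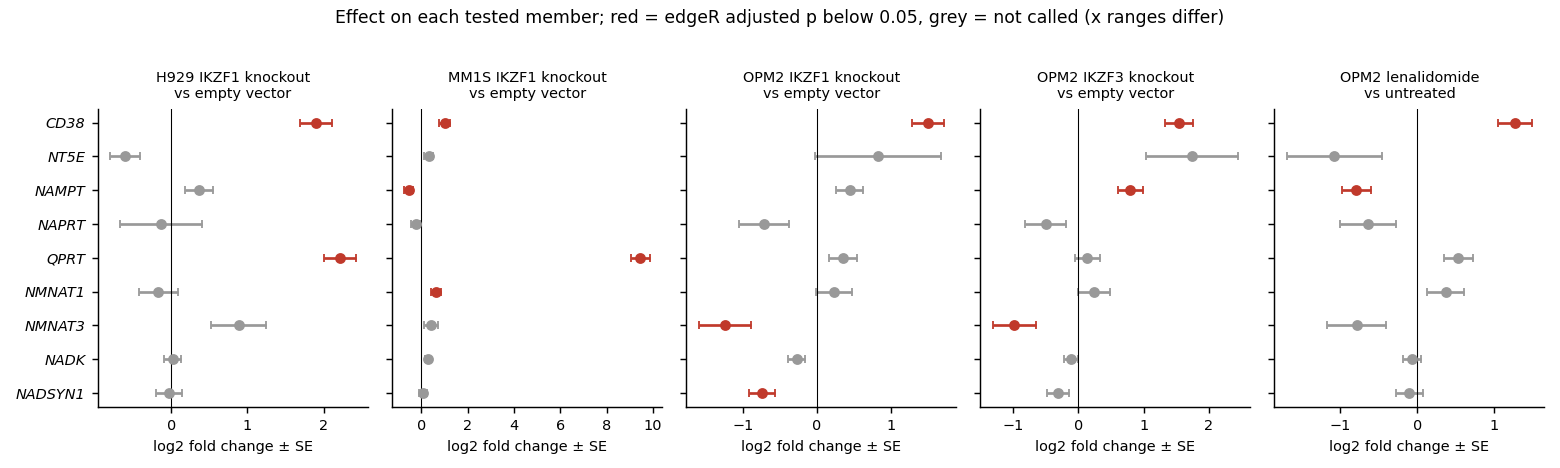
Log2 fold change ± SE (horizontal axes, whose ranges differ) of the 9 tested members in the 5 comparisons with control, 2 libraries against 2, called members in red. CD38 is red in all 5 panels, at 1.90, 1.01, 1.495, 1.54 and 1.27, and the other red points change from panel to panel.

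CD38 (Entrez 952, chr4:15778328-15853232 in GRCh38) measured 90.0 and 90.3 CPM in H929 controls, against 435 in library a and 237 in library b of the IKZF1 knockout. The groups did not overlap, and the 2 knockout libraries stood farther apart than the controls. The log2 fold change was 1.90 ± 0.21 (adjusted p = 2.19e-05), a 3.73-fold rise, and it ran from 1.40 to 2.27 when any 1 library was left out. In MM1S, CD38 went from 10.8 and 11.2 to 23.4 and 20.9 CPM, without overlap. The rise was 2.02-fold (1.01 ± 0.22, adjusted p = 0.0036). In OPM2, CD38 was 15.6 and 17.4 CPM with empty vector, 44.5 and 48.8 in the IKZF1 knockout and 44.1 and 51.9 in the IKZF3 knockout. Both knockout groups lay above the controls and overlapped each other. CD38 rose 2.82-fold in the IKZF1 knockout (1.495 ± 0.21, adjusted p = 0.000401) and 2.90-fold in the IKZF3 knockout (1.54 ± 0.21, adjusted p = 0.000282). Untreated OPM2 cells had 10.9 and 12.7 CPM and lenalidomide cells 27.95 and 28.95 CPM. The drug group lay above its controls, by 2.41-fold (1.27 ± 0.22, adjusted p = 0.00173). In bulk RNA, more cells with CD38 and more CD38 RNA per cell cannot be told apart. All 5 calls were kept with any 1 library left out. With the compared libraries fitted alone, the IKZF3 call was lost (1.59, adjusted p = 0.0678).

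The mean IKZF1 effect over the 3 lines was 1.47 ± 0.12 for CD38 (adjusted p = 1.22e-06), and for QPRT it was 4.002 ± 0.18 (adjusted p = 3.95e-09). These 2 were the members called for the mean effect, against 34.1% of all genes. Knockout of IKZF1 and of IKZF3 in OPM2 differed in CD38 by -0.04 ± 0.20 (IKZF1 minus IKZF3, adjusted p = 1). Called members numbered 0 of 9 in this comparison with edgeR, DESeq2 and limma-voom alike, against 2.59% of all genes in edgeR, and 1 member had an unadjusted p below 0.05 in each tool. That member in edgeR was NADSYN1 (-0.43 ± 0.17, adjusted p = 0.266), chosen here after its value was seen. H929 and MM1S controls lay 8.18-fold apart, and the test of the difference between the CD38 effects of these lines gave 0.89 ± 0.30 (adjusted p = 0.0595) and was not called.

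The other surface members, BST1 and NT5E, were called in none of the 5 comparisons, and BST1 was too low to be tested. BST1, whose gene ends 4.16 kb before CD38 begins, had 1 to 7 counts per group of 2 libraries and at most 0.248 CPM in any library. At this depth no difference in BST1 was detectable between groups. In H929 it had 7 counts in controls and 1 in the knockout, and the counting interval of the ratio, 0.62 to 218 for control over knockout, covers 1. NT5E measured 24.8 and 22.1 CPM in H929 controls and 13.3 and 17.6 in the knockout. The groups did not overlap, but the difference was not called (-0.60 ± 0.19, adjusted p = 0.0631). With limma-voom it was called (adjusted p = 0.0329), and also without OPM2 empty vector replicate 1 or 2 (adjusted p = 0.0169 for each), OPM2 IKZF1 knockout library a or b (adjusted p = 0.0459 and 0.0456) or H929 knockout library b (adjusted p = 0.0354). In MM1S, NT5E was 18.8 and 20.1 CPM in controls and 23.1 and 25.4 in the knockout (0.32 ± 0.19, adjusted p = 0.242). With the compared libraries alone this was called (0.31, adjusted p = 0.0227). In OPM2 the gene had 3 to 14 counts per group, near the limit of detection, and none of its 3 comparisons with control was called there. Without IKZF3 knockout library b that comparison was called (2.28, adjusted p = 0.0471), on 3 control counts.

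NAMPT, the salvage enzyme, was called in 3 comparisons, in different directions. In MM1S it was 124 and 130 CPM in controls and 79.1 and 96.4 in the knockout, below both controls. The fall was 1.44-fold (-0.53 ± 0.19, adjusted p = 0.0497), which lies at the threshold. The call was lost with DESeq2 size factors (adjusted p = 0.0527), with limma-voom (adjusted p = 0.0515) and without any 1 of the 4 MM1S libraries (adjusted p = 0.0643 to 0.305). Leaving out some libraries of the other lines also lost it (adjusted p = 0.0547 to 0.0699). In OPM2 with lenalidomide NAMPT was 203 and 209 CPM, against 346 and 368 in untreated cells. This 1.73-fold fall was called (-0.79 ± 0.19, adjusted p = 0.0137) and lost without any 1 of its 4 libraries (adjusted p = 0.0656 to 0.113), at nearly the same size (-0.84 to -0.75). In the IKZF3 knockout NAMPT was 320 and 329 CPM against 144 (replicate 1) and 229 (replicate 2) in the empty vector cells. All knockout values lay above these controls, and the rise was 1.74-fold (0.80 ± 0.19, adjusted p = 0.00535). With the compared libraries alone the call was lost (0.85, adjusted p = 0.196). Against untreated OPM2 cells the sign turned (-0.14, adjusted p = 0.745), and those cells had 346 and 368 CPM. The IKZF1 knockout of OPM2, at 231 and 274 CPM, was not called (0.44 ± 0.19, adjusted p = 0.0806), but was called without empty vector replicate 2 (0.81, adjusted p = 0.000484), with no low-count filter (adjusted p = 0.0183) and with DESeq2's Wald test (adjusted p = 0.0379). Against untreated cells it was -0.498 (adjusted p = 0.131). In H929, NAMPT was 240 and 243 CPM in controls and 358 and 262 in the knockout (0.36 ± 0.19, adjusted p = 0.273). Without OPM2 empty vector replicate 2 this was called (adjusted p = 0.049).

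NAPRT, the first enzyme of the nicotinic acid route, was called in none of the comparisons with control. In MM1S it was 39.9 and 41.3 CPM in controls and 37.3 and 32.2 in the knockout, below both controls by a margin that did not pass the test (-0.23 ± 0.19, adjusted p = 0.431). OPM2 libraries ranged from 0.568 to 1.98 CPM, and H929 had 16 counts in controls and 10 in the knockout. In OPM2 the log2 fold changes were -0.72 ± 0.33, -0.50 ± 0.31 and -0.65 ± 0.36 for IKZF1 knockout, IKZF3 knockout and lenalidomide (adjusted p = 0.107, 0.228 and 0.329). Without empty vector replicate 2 the first of these was called (-0.998, adjusted p = 0.0371).

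QPRT (Entrez 23475, chr16:29679008-29698699 in GRCh38), the last enzyme of the de novo branch, had the largest changes among the members in H929 and MM1S. It measured 8.92 and 9.68 CPM in H929 controls and 41.1 and 45.0 in the knockout. The 2 groups lay far apart, and the rise was 4.63-fold (2.21 ± 0.21, adjusted p = 6.55e-06). In MM1S, each control library held 1 count and the knockout libraries had 43.1 and 54.5 CPM, 1292 counts in all. The ratio was 776, with a 95% counting interval of 214 to 6410, and edgeR's log2 fold change of 9.45 ± 0.41 (adjusted p = 6.84e-09) depends on the small number of control counts. These 2 calls were kept under all 7 other settings and with any 1 of the 18 libraries left out. In OPM2 the gene was already high: 143 CPM in empty vector replicate 1 and 85.1 in replicate 2, against 132 and 158 in the IKZF1 knockout and 120 and 131 in the IKZF3 knockout. Controls and knockouts overlapped, and neither comparison was called (0.35 ± 0.19, adjusted p = 0.161, and 0.14 ± 0.19, adjusted p = 0.604). The result depended on the control library used: without replicate 1 both knockouts were called higher (0.80, adjusted p = 0.000334, and 0.59, adjusted p = 0.0026), and without replicate 2 the IKZF3 value turned to -0.19 (adjusted p = 0.211). With lenalidomide QPRT was 156 and 163 CPM, above the 108 and 112 of untreated cells. That difference (0.53 ± 0.19, adjusted p = 0.0954) was not called, but was called with no low-count filter (adjusted p = 0.0176), with the compared libraries alone (adjusted p = 3.42e-10) and without OPM2 empty vector replicate 1 or 2 (adjusted p = 0.000916 and 0.00103). Part of the QPRT exons (15.7% of bases) overlap another gene model on the same strand, AC009086.2, and the sources used here do not say how shared reads were counted.

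NMNAT1, the nuclear NMN adenylyl enzyme, was called in MM1S, where it rose from 5.54 and 7.23 to 9.93 and 10.1 CPM. The knockout libraries lay above both controls, by 1.57-fold (0.65 ± 0.21, adjusted p = 0.0332). The call was lost without control replicate 2 (0.46, adjusted p = 0.276), without knockout library a (0.63, adjusted p = 0.124) and without library b (0.66, adjusted p = 0.109). It was also lost without H929 empty vector replicate 1 or 2 (adjusted p = 0.0508 and 0.0509) and with no low-count filter (adjusted p = 0.0522). In H929 and OPM2 it stayed between 2.42 and 4.57 CPM, with log2 fold changes of -0.17 to 0.37, none called.

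NMNAT3, the mitochondrial form, was lower in both OPM2 knockouts. Its levels were 3.45 and 2.78 CPM with empty vector, 1.29 and 1.30 in the IKZF1 knockout and 1.07 and 1.96 in the IKZF3 knockout, without overlap with the controls. It fell 2.37-fold (-1.25 ± 0.35, adjusted p = 0.0138) and 1.97-fold (-0.98 ± 0.33, adjusted p = 0.0318). These rest on 108 control counts against 42 and 65. Without empty vector replicate 1 both calls were lost (-1.06, adjusted p = 0.0715, and -0.79, adjusted p = 0.153). The first was also lost without either knockout library (adjusted p = 0.0659 and 0.0675), and the second without library a (-0.66, adjusted p = 0.218) and without untreated replicate 2 (adjusted p = 0.0536). Against untreated cells, at 1.86 and 2.21 CPM, the differences were -0.66 (adjusted p = 0.334) and -0.39 (adjusted p = 0.568). With the compared libraries alone both calls were lost as well (-1.20, adjusted p = 0.183, and -0.95, adjusted p = 0.224). With lenalidomide the levels were 0.973 and 1.37 CPM (-0.79 ± 0.38, adjusted p = 0.244), a fall called with the compared libraries alone (adjusted p = 0.0371). In H929 and MM1S the gene lay above its controls in all knockout libraries without a call, at 1.02 and 1.72 against 2.01 and 3.12 CPM (0.89 ± 0.36, adjusted p = 0.146) and at 3.17 and 4.82 against 5.30 and 5.46 CPM (0.42 ± 0.30, adjusted p = 0.330).

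NADSYN1, the NAD synthetase, was 45.5 CPM in OPM2 empty vector replicate 1 and 29.3 in replicate 2, against 20.0 and 24.5 in the IKZF1 knockout. Both knockout libraries lay below both controls, and the gene fell 1.67-fold (-0.74 ± 0.17, adjusted p = 0.00506). The call was lost without knockout library b (-0.60) and with the compared libraries alone (-0.69, adjusted p = 0.238). It was also lost against untreated cells (-0.38, adjusted p = 0.226), which had 28.3 and 29.5 CPM. In the IKZF3 knockout, at 29.7 and 30.5 CPM, it was not called (-0.31 ± 0.17, adjusted p = 0.170), and was called without empty vector replicate 2 (-0.60, adjusted p = 0.000454). With lenalidomide NADSYN1 was 26.0 and 27.9 CPM (-0.10 ± 0.17, adjusted p = 0.798). H929 libraries ranged from 33.5 to 39.0 CPM and MM1S libraries from 40.4 to 44.5 CPM, with log2 fold changes of -0.03 and 0.07.

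NADK, the cytosolic NAD kinase, had a narrow range, between 94.9 and 169 CPM in the 18 libraries. Its log2 fold changes in the 5 comparisons were 0.02, 0.28, -0.28, -0.11 and -0.07, each with an SE of 0.11, and none was called. In MM1S the knockout libraries, at 114 and 117 CPM, lay above the controls at 94.9 and 95.6 CPM. The adjusted p of 0.0832 fell to 0.041 with DESeq2's Wald test, 0.0458 with the stricter low-count filter and 0.00394 with the compared libraries alone. Leaving out OPM2 empty vector replicate 1 or 2 also lowered it. Without OPM2 empty vector replicate 2 the changes in the OPM2 knockouts were called lower (-0.43, adjusted p = 0.000129, and -0.27, adjusted p = 0.00699).

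The 2 kinds of OPM2 control differed in the fit of all libraries. Empty vector minus untreated was -0.94 ± 0.19 for NAMPT (adjusted p = 0.00266) and -2.11 ± 0.68 for NT5E (3 against 14 counts, adjusted p = 0.0267). These were 2 of 9 members called, against 35.3% of all genes. A fit of the compared libraries alone, with its own filter, scaling and spread, called 0 of 12434 genes. Which of these changes removed the calls was not tested. The NT5E call was lost without empty vector replicate 1 or 2 or untreated replicate 1 (adjusted p = 0.0992, 0.0785 and 0.245), and the NAMPT call with the compared libraries alone (adjusted p = 0.218). CD38 was 1.40-fold higher with empty vector, which was not called (0.49 ± 0.22, adjusted p = 0.101). Vector, doxycycline and whatever else separated these cultures cannot be told apart. Set against untreated cells instead, CD38 in the OPM2 knockouts was higher by 1.98 and 2.03 on the log2 scale.

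Differences between effects were tested directly. Members called were 3 of 9 for H929 minus MM1S, 2 of 9 for H929 minus OPM2 and 5 of 9 for MM1S minus OPM2, against 15.9%, 12.7% and 20.7% of all genes. QPRT was called in all 3, at -7.24 ± 0.55, 1.86 ± 0.28 and 9.10 ± 0.50 (adjusted p = 1.36e-06, 0.00123 and 2.47e-07). These 3 calls were kept with any 1 library left out. Lenalidomide and the IKZF3 knockout, each against its own control, differed in NAMPT by -1.59 ± 0.27 (adjusted p = 0.0066), the 1 member of 9 called, against 6.6% of all genes. Lenalidomide and the IKZF1 knockout gave -1.23 ± 0.27 for NAMPT (adjusted p = 0.069). In that test edgeR called 0 of 9 members, with 2 at an unadjusted p below 0.05, against 0.281% of all genes. With limma-voom 0 were called as well. DESeq2 called 1, NAMPT (-1.26, adjusted p = 0.000686). It also called 5 of the other pathway genes described below, where edgeR called 0. The share of all genes called by DESeq2 in that test is not given here. The untreated cells had the highest NAMPT values of the OPM2 libraries, at 346 and 368 CPM against 144 and 229 with empty vector.

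Other genes of NAD metabolism and of CD38's products were taken from 3 lists, 51 genes of which 42 were tested. The lists were other NAD synthesis and conversion (12 of 19 tested), NAD-consuming enzymes (13 of 13) and CD38 products, adenosine and the CD38 ligand (17 of 19). Called genes numbered 5 of 42 in H929 (3 higher, 2 lower), 11 in MM1S (8 and 3), 17 in the OPM2 IKZF1 knockout (7 and 10), 21 in the IKZF3 knockout (6 and 15) and 5 with lenalidomide (3 and 2). The shares of all genes called in the same comparisons are given above. Among the NAD-consuming enzymes, the PARPs, sirtuins and SARM1, calls in H929, MM1S, OPM2 IKZF1 knockout, OPM2 IKZF3 knockout and lenalidomide were 0 higher and 0 lower, 0 and 1, 2 and 4, 3 and 4, and 0 and 0. The median log2 fold change of the 42 genes was between -0.13 and 0.09 in the 5 comparisons.

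**Figure D4:**
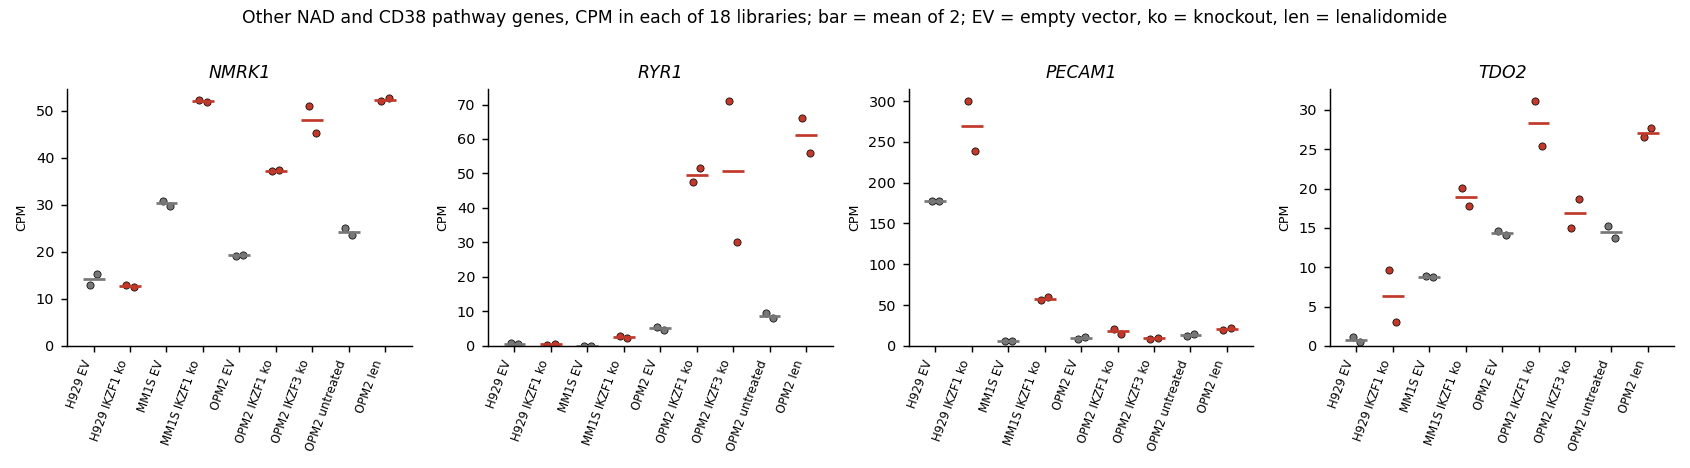
CPM of NMRK1, RYR1, PECAM1 and TDO2 in each of 18 libraries (points) with the mean of 2 (bars), controls in grey and knockout or drug groups in red. NMRK1 and RYR1 lie above their controls in MM1S and OPM2 and not in H929, where NMRK1 stays between 12.6 and 15.3 CPM.

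NMRK1, the kinase that admits nicotinamide riboside to NAD synthesis, was higher in MM1S and in all OPM2 comparisons. It went from 29.8 and 30.8 to 51.9 and 52.3 CPM in MM1S (0.78 ± 0.11, adjusted p = 0.000144). In OPM2 it was 19.2 and 19.3 CPM with empty vector, 37.2 and 37.3 in the IKZF1 knockout (0.95 ± 0.12, adjusted p = 0.000125) and 45.3 and 50.9 in the IKZF3 knockout (1.32 ± 0.12, adjusted p = 9.92e-06). With lenalidomide it rose from 23.5 and 25.1 to 52.0 and 52.7 CPM (1.11 ± 0.11, adjusted p = 1.93e-05). In each of these the libraries did not overlap. In H929 it was not called (-0.15 ± 0.12, adjusted p = 0.544). The 4 calls were kept with any 1 library left out, and the 2 OPM2 knockout calls were lost with the compared libraries alone (adjusted p = 0.150 and 0.0849).

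RYR1 is a ryanodine receptor, a calcium channel of the kind that responds to cyclic ADP-ribose. In OPM2 it was 4.61 and 5.58 CPM with empty vector, 47.5 and 51.5 in the IKZF1 knockout, and 30.2 and 71.1 in the IKZF3 knockout. It rose 9.79-fold (3.29 ± 0.33, adjusted p = 4.12e-05) and 9.96-fold (3.32 ± 0.33, adjusted p = 4.25e-05). With lenalidomide it went from 8.09 and 9.38 to 56.0 and 66.1 CPM, a 6.96-fold rise (2.80 ± 0.32, adjusted p = 6.41e-05). In MM1S it had 0 counts in controls and 71 in the knockout, at least 28.4-fold higher against a floor of 3 counts over the group (adjusted p = 0.000263). In H929 it stayed below 1 CPM and was not called. Its relative RYR2 fell in both OPM2 knockouts, from 44 control counts to 5 (-2.90 ± 0.66, adjusted p = 0.00509) and to 2 (ratio of control to knockout 25.04, counting interval 6.53 to 213, adjusted p = 0.00134). With the compared libraries alone these RYR2 calls were lost (adjusted p = 0.108 and 0.116). The RYR1 call in the IKZF3 knockout was lost in the same way (adjusted p = 0.0545).

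PECAM1 (CD31), the ligand of CD38, was higher in 4 comparisons. In MM1S it rose from 6.13 and 6.35 to 56.3 and 59.6 CPM, 9.27-fold (3.21 ± 0.19, adjusted p = 5.20e-08). The H929 values were 177 and 177 CPM in controls and 239 and 301 in the knockout (0.61 ± 0.16, adjusted p = 0.0262). In OPM2 the IKZF1 knockout had 14.3 and 20.9 CPM against 8.60 and 10.5 (0.87 ± 0.18, adjusted p = 0.0032), and lenalidomide 19.8 and 22.3 against 11.997 and 14.5 (0.67 ± 0.18, adjusted p = 0.0275). The IKZF3 knockout was not called (-0.10 ± 0.19, adjusted p = 0.736). The MM1S call was kept with any 1 library left out. The H929 call was lost without either control or knockout library a (adjusted p = 0.152, 0.158 and 0.253), and the lenalidomide call without any 1 of its 4 libraries (adjusted p = 0.066 to 0.274). Against untreated cells the OPM2 IKZF1 knockout gave 0.41 (adjusted p = 0.200), and with the compared libraries alone 0.92 (adjusted p = 0.190).

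TDO2, which opens the tryptophan route that ends at QPRT, was higher in the 3 IKZF1 knockouts. In H929 it rose from 0.456 and 1.08 to 3.01 and 9.60 CPM (3.05 ± 0.46, adjusted p = 0.000495). The H929 value ran from 1.99 to 3.765 with any 1 library left out, and the call was lost with the compared libraries alone (adjusted p = 0.0541). The other 2 rises were 2.16-fold in MM1S (1.11 ± 0.32, adjusted p = 0.0184) and 1.97-fold in OPM2 (0.98 ± 0.31, adjusted p = 0.0228). The OPM2 rise was not called with the compared libraries alone (adjusted p = 0.152) or against untreated cells (adjusted p = 0.0722). In the IKZF3 knockout and with lenalidomide TDO2 was not called (0.23 ± 0.31, adjusted p = 0.594, and 0.90 ± 0.31, adjusted p = 0.0840). The MM1S call was lost without any 1 of its 4 libraries (adjusted p = 0.0559 to 0.105). The OPM2 call was lost without either control or knockout library a (adjusted p = 0.0821, 0.0647 and 0.125). Other genes of the route were low. HAAO had 0 counts in all H929 and MM1S groups and 0 to 2 in OPM2 groups. KYNU had 0 to 4 counts per group in MM1S and OPM2, and 31 in H929 controls against 12 in the knockout. KMO went from 6.93 and 7.06 to 3.97 and 4.69 CPM in MM1S. It had 14 and 6 counts in H929. In OPM2 it was 15.06 and 16.02 CPM with empty vector and 15.18 and 16.02 in the IKZF1 knockout. Activity of the route was not tested.

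Genes of the lists that fell included ADK, the adenosine kinase, in H929 (-0.47 ± 0.11, adjusted p = 0.00959), in both OPM2 knockouts (-0.35 ± 0.11, adjusted p = 0.0190, and -0.50 ± 0.11, adjusted p = 0.00329) and with lenalidomide (-0.38 ± 0.11, adjusted p = 0.0370). Each ADK call was lost on leaving out a library of its own comparison: control replicate 2 or knockout library a in H929 (adjusted p = 0.120 and 0.0551), either knockout library for IKZF1 in OPM2 (adjusted p = 0.0739 and 0.0898), library a for IKZF3 (adjusted p = 0.0517) and any of the 4 with lenalidomide (adjusted p = 0.163 to 0.232). Against untreated cells ADK in the OPM2 IKZF1 knockout was -0.02 (adjusted p = 0.972). The nucleoside transporter SLC29A1 fell 2.09-fold and 2.16-fold in the OPM2 IKZF1 and IKZF3 knockouts (adjusted p = 0.000377 and 0.000249), and against untreated cells these were -0.105 (adjusted p = 0.765) and -0.151 (adjusted p = 0.620). NAXE, the epimerase that repairs damaged NAD(P)H, fell 2.15-fold and 1.90-fold there (adjusted p = 0.00147 and 0.00327). NAXE was 541 and 292 CPM in the empty vector libraries and 191 and 206 in untreated cells, and against untreated cells the 2 values were -0.04 (adjusted p = 0.967) and 0.14 (adjusted p = 0.757). AFMID, of the tryptophan route, fell in H929 (-0.50 ± 0.15, adjusted p = 0.0413) and in the OPM2 IKZF1 and IKZF3 knockouts (-0.69 ± 0.15, adjusted p = 0.00314, and -0.53 ± 0.14, adjusted p = 0.0113). Leaving out 1 library did not change the OPM2 IKZF1 call, and the IKZF3 call was lost without knockout library a or empty vector replicate 1 (adjusted p = 0.116 and 0.0864). Against untreated cells these 2 were -0.40 (adjusted p = 0.114) and -0.24 (adjusted p = 0.358). NADK2, the mitochondrial NAD kinase, fell with lenalidomide (-0.70 ± 0.17, adjusted p = 0.0159). The H929 call of AFMID and the NADK2 call were lost without any 1 of the 4 libraries compared (adjusted p = 0.0592 to 0.270 and 0.076 to 0.122). TPCN1, an endolysosomal channel of NAADP signalling, rose 2.06-fold in MM1S (1.04 ± 0.10, adjusted p = 4.87e-06), from 38.4 and 40.1 to 80.7 and 80.8 CPM. SLC29A1, NAXE, RYR2, NADK2 and TPCN1 were called in no further comparison with control, and AFMID was not called in MM1S (0.30 ± 0.16, adjusted p = 0.185) or with lenalidomide (-0.21 ± 0.15, adjusted p = 0.439). The OPM2 knockout calls of ADK, SLC29A1, NAXE and AFMID were lost with the compared libraries alone (adjusted p = 0.145 to 0.460).

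The genes whose pattern was most like that of CD38 were found by Pearson correlation over the 18 libraries of log2 CPM centred within each line. They were PARP9 (r = 0.952), SNX2 (r = 0.946), IRF1 (r = 0.934), PPP2R2A (r = 0.928) and ZNF710 (r = 0.926). The libraries of a line share their controls and culture, so these values describe likeness only. The genes were picked on the same libraries in which CD38 rose in all 5 comparisons. Their calls in the same direction follow in part from that choice and are no separate evidence. PARP9 was called higher in all 5 comparisons, with log2 fold changes of 6.54, 2.27, 2.85, 3.71 and 2.89, and so were SNX2 (0.50 to 0.84) and ZNF710 (0.68 to 1.23). IRF1 was called in 4, with 0.48 (adjusted p = 0.120) in the OPM2 IKZF1 knockout, and PPP2R2A in 2. The PARP9 calls were kept with any 1 library left out. SNX2 lost its MM1S call without either control or knockout library a (adjusted p = 0.0573, 0.0669 and 0.103), ZNF710 its OPM2 IKZF1 call without knockout library b (adjusted p = 0.168), and IRF1 its MM1S and lenalidomide calls without any 1 library compared (adjusted p = 0.0859 to 0.113 and 0.0812 to 0.149). The lenalidomide calls of SNX2 and ZNF710 were lost without either untreated library, and without lenalidomide replicate 2 for SNX2 and replicate 1 for ZNF710 (adjusted p = 0.0640 to 0.0690 and 0.0519 to 0.132). IRF1 in the IKZF3 knockout was lost without knockout library b or control replicate 2 (adjusted p = 0.0506 and 0.0795). Among the other members the correlation with CD38 was 0.46 for QPRT, -0.48 for NAPRT, -0.38 for NADSYN1 and -0.23 to 0.25 for the remaining 5.

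**Figure D5:**
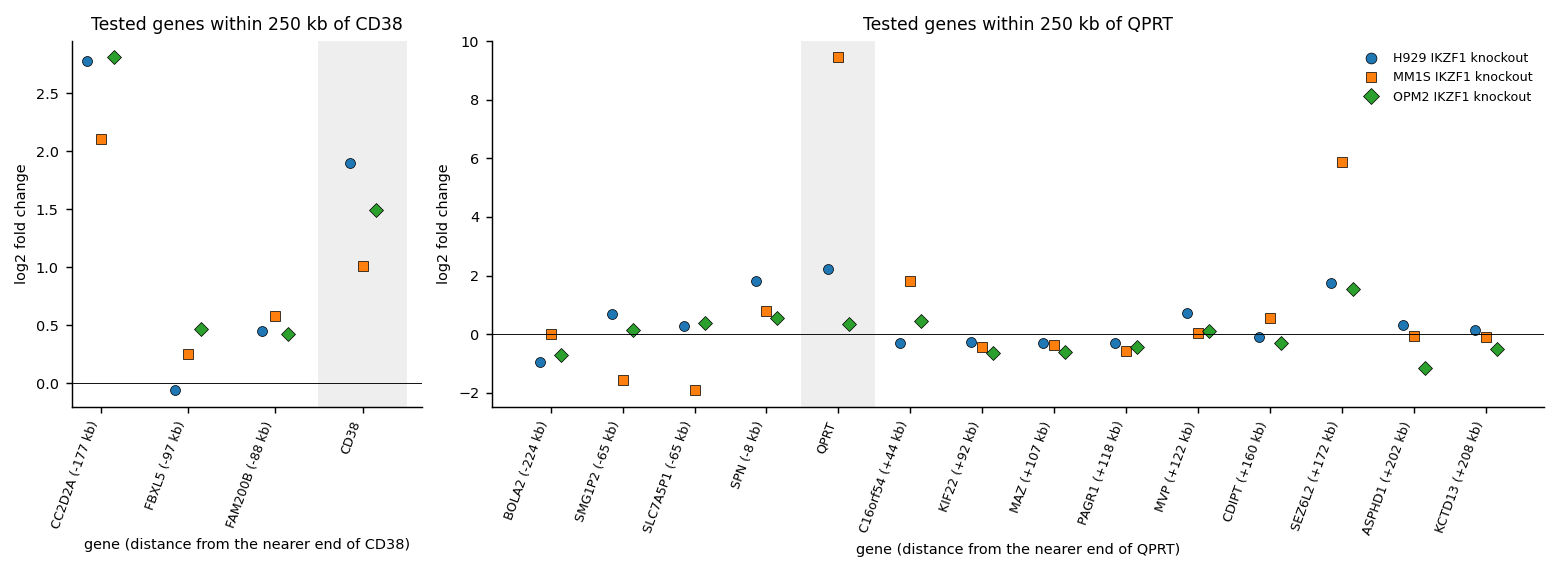
Log2 fold change (vertical axis) in the IKZF1 knockouts of H929, MM1S and OPM2 for the tested genes within 250 kb of CD38 (left) and QPRT (right), in order along the chromosome with their distance. QPRT rises by 9.45 in MM1S, and the point of SEZ6L2 in MM1S is a fitted value over 0 control counts, so its height is no measured size.

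Genes beside CD38 and QPRT were looked at within 250 kb, after values of these loci had been seen. Near CD38, 3 of 7 neighbours were tested. CC2D2A, 177 kb before CD38, had 4 to 14 counts in each control group. It was called in the OPM2 IKZF1 knockout (8 against 54 counts, 2.81 ± 0.77, adjusted p = 0.0117), and lost without control replicate 2 (adjusted p = 0.0663) or knockout library b (adjusted p = 0.110). FBXL5 and FAM200B had log2 fold changes between -0.06 and 0.58 in the 5 comparisons, with 1 call each (0.47, adjusted p = 0.0313, in the OPM2 IKZF1 knockout, and 0.58, adjusted p = 0.044, in MM1S). Near QPRT, 13 of 22 neighbours were tested. SPN, the leukosialin gene that ends 8.13 kb before QPRT, rose in H929 (1.81 ± 0.14, adjusted p = 7.04e-07), where QPRT rose by 2.21. It also rose in the OPM2 IKZF1 and IKZF3 knockouts (0.53 ± 0.13, adjusted p = 0.00747, and 1.245 ± 0.14, adjusted p = 5.1e-05), where QPRT was not called, and against untreated cells the first of these was 0.06 (adjusted p = 0.879). SPN had 2 control and 3 knockout counts in MM1S, where QPRT had its largest change. C16orf54, 43.8 kb beyond QPRT, was not called in H929 (-0.30 ± 0.20, adjusted p = 0.418) and rose in MM1S (1.83 ± 0.21, adjusted p = 2.11e-05) and in the OPM2 IKZF3 knockout (4 control counts against 123, adjusted p = 5.72e-05), where QPRT was not called. SEZ6L2, 173 kb beyond, rose in H929 (1.73 ± 0.36, adjusted p = 0.00652) and with lenalidomide (7 against 41 counts, adjusted p = 0.0105). In MM1S it had 0 control counts and 12 in the knockout, 11 of them in library a (adjusted p = 0.0131). Against a floor of 3 counts over the group this was 4.8-fold higher. These 3 calls were lost without H929 control replicate 2 (adjusted p = 0.114), without MM1S knockout library a (adjusted p = 0.265) or either MM1S control (adjusted p = 0.0755 and 0.0637), and without lenalidomide replicate 1 or either untreated library (adjusted p = 0.064 to 0.129). Of all genes tested, 10.5% were called in H929, 28.2% in MM1S, 36.3% and 36.8% in the OPM2 IKZF1 and IKZF3 knockouts, and 10.3% with lenalidomide. Of the 13 tested neighbours of QPRT, 3 were higher and 0 lower in H929, and 3 and 3 in MM1S. In OPM2 they were 1 and 4 in the IKZF1 knockout, 3 and 3 in the IKZF3 knockout, and 2 and 0 with lenalidomide. Those lower in MM1S were SLC7A5P1 (-1.92, adjusted p = 0.00517), SMG1P2 (-1.58, adjusted p = 0.00688) and PAGR1 (-0.58, adjusted p = 0.00864), and those lower in the OPM2 IKZF1 knockout were KIF22, MAZ, PAGR1 and KCTD13 (-0.65 to -0.45). The 3 MM1S calls were lost without a single MM1S library: knockout library a for SLC7A5P1 (adjusted p = 0.0822), that library or control replicate 1 for SMG1P2 (adjusted p = 0.103 and 0.0670), and knockout library b for PAGR1 (adjusted p = 0.0968). The 4 OPM2 calls were lost without empty vector replicate 1 or without knockout library a (adjusted p up to 0.413), and all 4 against untreated cells (adjusted p = 0.401 to 1). These neighbours were chosen by position, and SMG1P2 and SLC7A5P1 are pseudogenes, which can share reads with their parent genes.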

How the data were processed

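RNA from 18 libraries was measured by RNA sequencing. The authors deposited raw read counts per Entrez gene. Subread, featureCounts and limma are named for GRCh38 (also hg38) in the submitters' processing notes, and the sources used here give no version, strand setting or filter. The authors also deposited log2 FPKM values for 16352 genes in 14 columns, with each control group merged. No further step is recorded for them. They served only for levels between genes.

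Counts were tested with edgeR 4.0.16 (R 4.3.3, limma 3.58.1). Of 28395 genes, 385 had no symbol, held at most 0.0276% of a library's counts and were kept. filterByExpr left 14571 genes. TMM scaling and a robust quasi-likelihood fit of 9 groups had 9 residual degrees of freedom, and p-values were adjusted by Benjamini-Hochberg over all genes tested. The SE comes from the fold change and its F statistic. CPM is counts over the TMM-scaled library size. Per-gene exact permutation tests were not run, since 2 against 2 libraries cannot go below p = 0.333. Ratios with 3 or fewer counts in a group have exact 95% binomial intervals. Intervals and floors cover counting error only.

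Knockout count columns carry other numbers than the sample titles and are called library a and b. All 10 members are named in all groups. Of the other lists, up to 4 called genes with the smallest p per comparison are named, and the 5 genes most like CD38. Members and lists were chosen with earlier results of these data known. Promoters come from RefSeq (GRCh38.p14): 8 of 10 members had a searched entry, 1 had none and 1 was not searched. Alternatives were DESeq2 1.42.0 size factors or Wald test, upper quartile scaling, limma-voom, no filter, CPM of 5 in 2 libraries, the compared libraries alone, untreated OPM2 as control, each library left out, and, added after the data were seen, the replicate number of the control libraries as a block.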

Additional observations from a re-analysis of the deposited data

Results flagged for a closer look

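Of the differences tested between the effects in different lines, or between lenalidomide and a knockout, 11 were called for a member by edgeR's quasi-likelihood test. Each is a difference of 2 log2 fold changes ± SE, with 2 libraries in every group. The shares of all genes called were 15.9% for H929 minus MM1S, 12.7% for H929 minus OPM2 and 20.7% for MM1S minus OPM2. They were 0.281% for lenalidomide minus IKZF1 knockout and 6.6% for lenalidomide minus IKZF3 knockout. For QPRT, H929 minus MM1S was -7.237 ± 0.55 (adjusted p = 1.36e-06), MM1S minus OPM2 was 9.098 ± 0.50 (adjusted p = 2.47e-07) and H929 minus OPM2 was 1.862 ± 0.28 (adjusted p = 0.00123). The values that involve MM1S rest on 2 control counts. The last was lost with the compared libraries alone (adjusted p = 0.0668).

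NAMPT differed between H929 and MM1S by 0.892 ± 0.27 (adjusted p = 0.0336), between MM1S and OPM2 by -0.968 ± 0.27 (adjusted p = 0.0207), and between lenalidomide and the IKZF3 knockout by -1.592 ± 0.27 (adjusted p = 0.0066). NMNAT3 differed between H929 and OPM2 by 2.132 ± 0.50 (adjusted p = 0.0166) and between MM1S and OPM2 by 1.669 ± 0.46 (adjusted p = 0.0215). NT5E differed between H929 and MM1S by -0.923 ± 0.27 (adjusted p = 0.0316). NADK and NADSYN1 differed between MM1S and OPM2 by 0.552 ± 0.16 (adjusted p = 0.0260) and 0.816 ± 0.24 (adjusted p = 0.0284).

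The line differences of NAMPT, NMNAT3, NT5E, NADK and NADSYN1 each lost the call without some single library: adjusted p reached 0.157 and 0.0889 for the NAMPT pair, 0.0789 and 0.103 for the NMNAT3 pair, and 0.135, 0.111 and 0.110 for NT5E, NADK and NADSYN1. The NAMPT difference of lenalidomide minus IKZF3 knockout was lost with the compared libraries alone (adjusted p = 0.0912). In the same way, MM1S minus OPM2 was lost for NAMPT, NMNAT3, NADK and NADSYN1 (adjusted p = 0.116, 0.0540, 0.195 and 0.169). So was H929 minus OPM2 for NMNAT3 (adjusted p = 0.121). Against untreated cells the OPM2 IKZF1 effects were -0.498 for NAMPT, -0.657 for NMNAT3 and -0.377 for NADSYN1, none called. The differences between lines were not tested with that control.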

How the results depend on the processing

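CD38 was called higher in all 5 comparisons under each scaling, filter and tool tried and with any 1 library left out, except in the IKZF3 knockout with the compared libraries alone. Called members numbered 1 in the OPM2 IKZF1 knockout and 0 in the IKZF3 knockout with the compared libraries alone (edgeR, 3 members at an unadjusted p below 0.05), 1 and 1 against untreated cells, and 4 with lenalidomide with the compared libraries alone. In MM1S the compared libraries alone gave 6 called members. Other pathway genes called were 17 in MM1S, 1 and 0 in the OPM2 IKZF1 and IKZF3 knockouts (8 of the latter at an unadjusted p below 0.05) and 19 with lenalidomide with the compared libraries alone, and 5 and 4 in the 2 OPM2 knockouts against untreated cells. With all libraries DESeq2 and limma-voom each called 3 members in the IKZF3 knockout, and 21 and 20 other pathway genes. They called 39.2% and 37.6% of all genes there. The share of all genes called with the compared libraries alone was 55.4% in MM1S, 0.929% and 0.419% in the OPM2 IKZF1 and IKZF3 knockouts and 45.4% with lenalidomide, and against untreated cells it was 7.76% and 8.27%. With 1 library left out, called members ranged from 2 to 4, 2 to 5, 1 to 6, 2 to 5 and 1 to 3 in H929, MM1S, OPM2 IKZF1, OPM2 IKZF3 and lenalidomide, and other pathway genes from 1 to 11, 6 to 15, 11 to 25, 9 to 27 and 2 to 8. The counts of 6 and 5 members in the OPM2 knockouts came without empty vector replicate 2.

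Values that changed sign were all uncalled under the setting that turned them. Against untreated OPM2 cells, the IKZF1 and IKZF3 knockouts gave -0.498 and -0.138 for NAMPT and -1.29 and -0.370 for NT5E, the IKZF1 knockout gave 0.0113 for PAGR1, and the IKZF3 knockout gave 0.142 for NADK, 0.0570 for NADSYN1 and 0.141 for NAXE. In H929, NADK was -0.00036 with upper quartile scaling and NADSYN1 was 0.0074 with the compared libraries alone. With 1 library left out, the H929 ranges were -0.0304 to 0.0729 for NADK, -0.139 to 0.0778 for NADSYN1 and -0.847 to 0.442 for NAPRT. In OPM2, NT5E ran from -0.469 to 1.54 in the IKZF1 knockout. In the IKZF3 knockout NADK ran from -0.271 to 0.0998, NADSYN1 from -0.595 to 0.0712, QPRT from -0.191 to 0.595 and PECAM1 from -0.189 to 0.0734. The cause was not tested. A group left with 1 library was assumed to vary like the others. No paired fit was made for the 5 comparisons with control, since the knockout count columns carry other numbers than the titles and the lenalidomide and untreated titles share none (A and B against 1 and 2). Among the 8 control libraries, which share numbers, the correlation of deviations between groups was -0.076 to 0.123. The highest value was that of the OPM2 empty vector and untreated groups. Low values between lines cannot exclude a shared batch, so whether the number marks one was not settled. With the number as a replicate block, called members stayed at 6, 6, 7 and 2 in the 4 comparisons of controls. The shares of all genes called were 63.7%, 65%, 67.9% and 37.3%. With this block CD38 in MM1S minus OPM2 was -0.583 (adjusted p = 0.0342). The median over all genes moved by less than 0.1 under each scaling. Depth limits BST1, NT5E in OPM2 and NAPRT in H929, with 1 to 16 counts per group.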
